A study of Homo sapiens with 3 samples.

Results

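The genes described are those of the human HOX clusters A to D, measured on 3 Affymetrix expression arrays. They were chosen by name alone: every probe set whose only annotated gene symbol is HOX, a letter A to D and a number. This gave 44 probe sets for 28 genes, of 54675 probe sets on each array, 41091 of which carry a single gene symbol. Cluster A is represented by 1 gene with 1 probe set (HOXA2), cluster B by 10 genes with 19, cluster C by 9 genes with 9 and cluster D by 8 genes with 15. Other HOX genes, and 3 probe sets annotated to several genes of the HOXD cluster, were not analysed with the members.

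The RNA came from cultures of H9, an established human embryonic stem cell line, and there was 1 array per group. The neuroepithelial group was taken at day 17 of differentiation, and its label names no morphogen. The RA group and the FGF8 group were astrocytes at day 210 whose progenitors had been given retinoic acid or fibroblast growth factor 8, respectively, from day 10 to day 21. The labels give no genetic change for any group and no time between day 17 and day 210, so stage and morphogen cannot be told apart in either comparison with the neuroepithelial array, and RA against FGF8 is the comparison at a shared day. Without replicates no difference was tested, and sizes alone are given.

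HOX genes encode homeodomain transcription factors that give cells their position along the head-to-tail axis. In each cluster the genes are ordered by paralogue number, low numbers acting in the hindbrain and neck and high numbers in the trunk and tail, and neural tissue in front of the hindbrain normally expresses none of them. Retinoic acid is a known inducer of the low-numbered genes, in part through receptor binding sites in and around the clusters, whereas FGF8 is a signal of rostral organisers such as the midbrain-hindbrain boundary. Once set, the HOX pattern is held through cell division by chromatin.

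Promoters are shown for the members of clusters A and D that gave signal in the RA array and for HOXD1, a cluster D gene that gave none. Each is the 250 bases before the RefSeq gene start, on the gene's strand (GRCh38.p14): HOXA2 chr7:27102684-27102933 (minus strand), HOXD8 chr2:176129455-176129704, HOXD4 chr2:176151300-176151549 and HOXD1 chr2:176188418-176188667 (plus strand). Capitals mark matches to any of 6 motifs searched on both strands: AGGTCA and AGTTCA, spellings of the retinoid receptor half-site, direct repeats of AGGTCA with 5 or 2 bases between, TGATTNAT, a site for HOX with PBX, and TATAAA. A match to a repeat is also counted as a match to its half-site.
HOXA2: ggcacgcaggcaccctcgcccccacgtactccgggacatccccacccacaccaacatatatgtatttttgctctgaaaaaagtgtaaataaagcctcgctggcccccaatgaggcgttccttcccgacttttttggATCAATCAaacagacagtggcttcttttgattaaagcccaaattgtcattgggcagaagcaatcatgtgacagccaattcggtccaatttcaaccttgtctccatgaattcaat
HOXD8: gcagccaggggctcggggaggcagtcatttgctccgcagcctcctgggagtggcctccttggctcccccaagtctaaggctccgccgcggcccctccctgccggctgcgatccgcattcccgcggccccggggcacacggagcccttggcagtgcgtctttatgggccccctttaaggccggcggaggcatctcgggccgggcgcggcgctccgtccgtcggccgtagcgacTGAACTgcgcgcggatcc
HOXD4: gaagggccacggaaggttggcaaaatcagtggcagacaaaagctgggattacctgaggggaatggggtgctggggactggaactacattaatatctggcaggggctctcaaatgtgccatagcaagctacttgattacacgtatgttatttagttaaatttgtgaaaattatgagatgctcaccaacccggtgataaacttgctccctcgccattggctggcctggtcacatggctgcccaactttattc
HOXD1: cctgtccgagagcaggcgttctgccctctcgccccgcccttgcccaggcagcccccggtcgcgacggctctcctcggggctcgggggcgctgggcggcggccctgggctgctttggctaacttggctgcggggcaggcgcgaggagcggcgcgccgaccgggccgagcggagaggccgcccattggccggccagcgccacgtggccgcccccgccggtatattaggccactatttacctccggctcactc

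The HOXA2 window held TGATTNAT, a motif in 2.48% of 35116 promoter windows of the same length, and the HOXD8 window held AGTTCA, in 8.80%. The HOXD4 and HOXD1 windows held no match. Of the 11 members with a window (HOXC4 and HOXC5 share theirs), 0 held AGGTCA, which 12.1% of windows contain, or either direct repeat, each found in 1 window of the whole table. HOXB1 was the only cluster B gene with a window, so HOXB2 to HOXB8 were not searched. Among the genes higher in RA, only HOXA2, HOXD4 and HOXD8 had one. AGTTCA stood in 4 of the 11 (HOXC4, HOXC5, HOXD8 and HOXD13), TGATTNAT in 2 (HOXA2 and HOXD11) and TATAAA, in 10.7% of windows, in 1 (HOXD13). AGTTCA therefore occurred both in a member with signal in the RA array and in members without. The share of CG dinucleotides relative to base composition had a median of 0.888 over the 11 members and 0.558 over the whole table; it was 0.609 for HOXA2, 0.857 for HOXD8, 0.287 for HOXD4 and 0.888 for HOXD1.

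Signals are quantile-normalized intensities on a linear scale. The floor is 26.4, the median signal once control probe sets are left out; a lower signal is taken as not measured, and such signals have no order. Where 1 array lies below the floor, the fold is a minimum, given as "at least", and a probe set is called higher or lower at a difference of 2-fold or more. Probe sets bind with different strength, so a signal is compared between arrays and never between genes.

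In the RA astrocytes a run of neighbouring HOXB genes, from HOXB2 to HOXB8, was above the floor, together with HOXA2, HOXD4 and HOXD8. In the neuroepithelial cells signal was restricted to low values at HOXB2, HOXB3 and HOXB5, and in the FGF8 astrocytes to low values at HOXB5 and HOXC5. Of the 44 probe sets 14 were above the floor in the RA array, 3 in the neuroepithelial array and 2 in the FGF8 array, where 55.0%, 55.6% and 55.0% of probe sets with 1 symbol were. Against the neuroepithelial array 13 of the 44 (29.5%), for 10 of the 28 genes, were at least 2-fold higher in RA, beside a background of 10.1%, and 0 were lower, beside 10.0%. Against the FGF8 array the same 13 were higher, beside 5.48%, and 0 lower, beside 4.83%. The 2 comparisons share the RA array. With 41 of 44 members at the floor in the neuroepithelial array, a lower call was open to few of them. In FGF8 against neuroepithelial cells 0 members were higher, beside 6.96%, and 1 was lower, beside 7.09%. The median log2 difference was 0 over the 44 members, as over the 41091 probe sets, in each comparison, because a pair at the floor counts as 0.

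**Figure D1:**
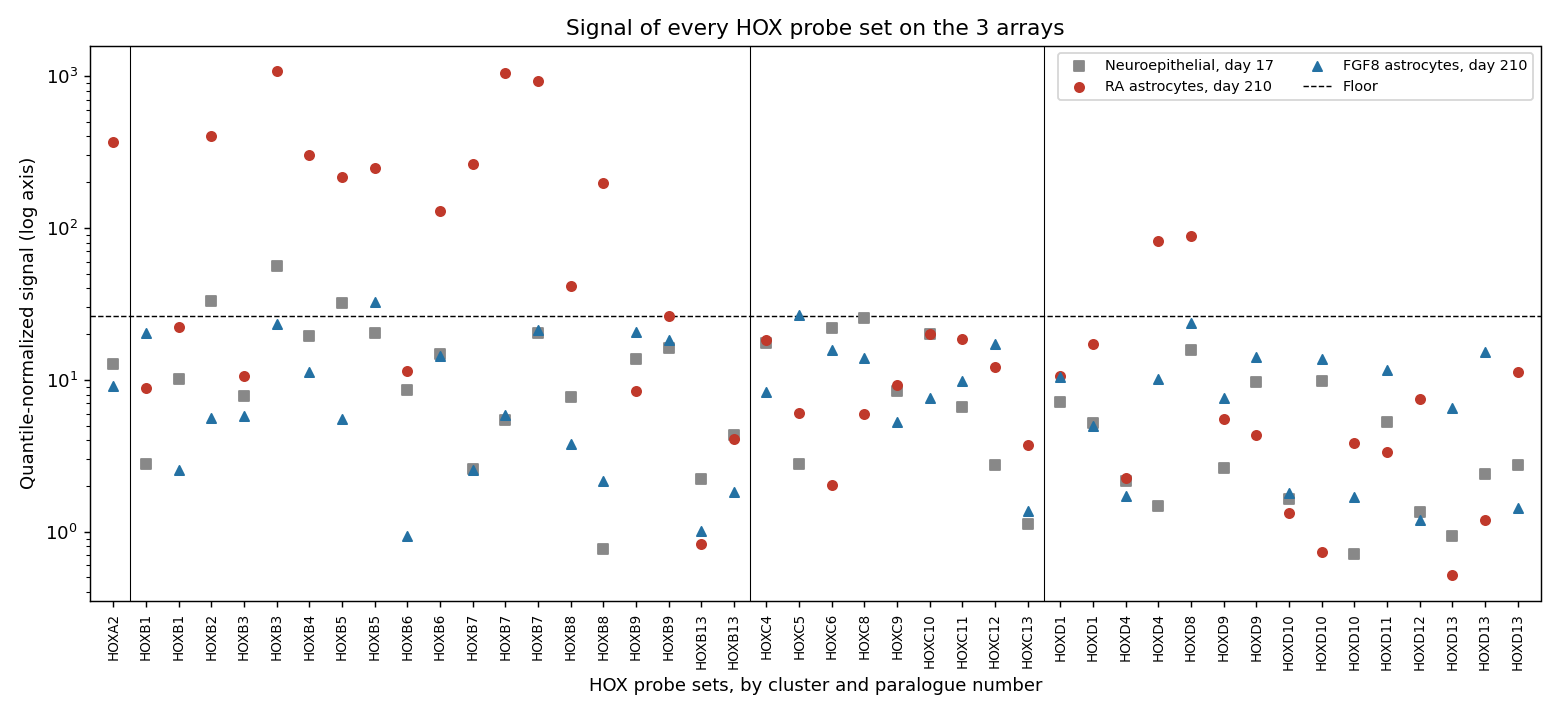
Quantile-normalized signal (log axis) of the 44 HOX probe sets, ordered by cluster and paralogue number, with a marker for each of the 3 arrays; the dashed line is the floor of 26.4 and vertical lines separate clusters A, B, C and D. Heights are comparable between arrays, not between genes. The RA markers (red circles) leave the floor at HOXA2, from HOXB2 to HOXB8, at HOXD4 and at HOXD8, and the neuroepithelial and FGF8 markers stay at or below 56.3.

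The low-numbered genes, groups 1 to 3, pattern the hindbrain. HOXA2, which patterns the anterior hindbrain and the crest that leaves it, had a signal of 12.7 on the neuroepithelial, 369 on the RA and 9.12 on the FGF8 array. It was above the floor in RA and under it in both other arrays, a difference of at least 14.0-fold from either. HOXB2, a gene of the hindbrain segments, had 32.8, 403 and 5.63 in the same order. Its low neuroepithelial signal was measured, so RA was 12.3-fold higher than neuroepithelial cells and at least 15.3-fold higher than FGF8.

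HOXB3 is a hindbrain gene that in the RefSeq annotation spans HOXB4. Its brighter probe set had 56.3 in neuroepithelial cells, 1076 in RA and 23.5 in FGF8. RA was 19.1-fold above the neuroepithelial array and at least 40.8-fold above FGF8, while FGF8 was at least 2.13-fold below the neuroepithelial array, the single member called lower in FGF8. Its other probe set, of the type _s_at, was under the floor on the 3 arrays, at 7.84, 10.7 and 5.81, so the calls for HOXB3 rest on 1 of its 2 probe sets. HOXB1, required for facial motor neurons and the first gene of the cluster, was under the floor with both probe sets on each array, at no more than 22.3. HOXD1 likewise reached no more than 17.1.

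Groups 4 and 5 mark the caudal hindbrain and neck. HOXB4 had a signal of 19.4 in neuroepithelial cells, 301 in RA and 11.2 in FGF8, so that RA was at least 11.4-fold higher than both. HOXD4, its paralogue in cluster D, had 1.47, 82.2 and 10.2 with 1 probe set, at least 3.12-fold higher in RA than in either, and its _s_at probe set was under the floor throughout, at no more than 2.25. HOXC4, the cluster C paralogue, was under the floor on each array (17.5, 18.3 and 8.26). The group was thus above the floor in RA in clusters B and D and not in cluster C.

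HOXB5, a gene of the neck region and of the crest that forms gut neurons, had 2 probe sets that moved alike in RA. The _s_at probe set had 20.5 in neuroepithelial cells, 248 in RA and 32.3 in FGF8. RA was at least 9.41-fold higher than the neuroepithelial array and 7.67-fold higher than FGF8, both values of the latter pair lying above the floor. The _x_at probe set had 31.8, 217 and 5.55, which is 6.83-fold and at least 8.24-fold. The low signal of a second array was thus measured in FGF8 by the former and in neuroepithelial cells by the latter. HOXC5 had 2.79 and 6.06 in the first arrays and 26.7 in FGF8, only just past the floor and within 2-fold of it.

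Groups 6 to 8 act in the trunk. HOXB7 was higher in RA on each of its 3 probe sets. Of its _s_at probe sets the first had 5.40 in neuroepithelial cells, 1040 in RA and 5.82 in FGF8, at least 39.4-fold higher in RA than in either. The other _s_at probe set had 20.3, 934 and 21.4 (at least 35.4-fold), and the _x_at probe set had 2.57, 262 and 2.55 (at least 9.92-fold). The size of the bound thus depended on the probe set, and the direction did not.

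HOXB6 split between its probe sets. The _s_at probe set had 14.8, 129 and 14.4, at least 4.88-fold higher in RA than in either other array, and the other was under the floor on each array, at 11.3 or less. HOXB8, the most caudal gene with signal in cluster B, had 0.772, 199 and 2.15 with its _s_at probe set, at least 7.53-fold higher in RA than in either. Its other probe set had 7.70, 41.4 and 3.79, at least 1.57-fold, short of the 2-fold needed for a call. In cluster D HOXD8 had 15.6, 88.4 and 23.5, at least 3.35-fold higher in RA than in either other array. HOXC6 and HOXC8, paralogues in cluster C that help sort spinal motor neurons, were under the floor on each array (at most 21.9 and 25.5).

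The calls for HOXB5, HOXB6, HOXB7 and HOXB8 rest on probe sets of the types _s_at and _x_at, which can match several transcripts or related sequences. Without those types 30 probe sets were left and 6 were higher in RA against either array, 1 each for HOXA2, HOXB2, HOXB3, HOXB4, HOXD4 and HOXD8. No HOXB7 or HOXB5 probe set remained in that setting.

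Groups 9 to 13 pattern the lower trunk, limbs and tail, and none of their 19 probe sets, for 12 genes, was above the floor on any array. For HOXB9, the gene next to HOXB8, 1 probe set had 16.3 in neuroepithelial cells, 26.1 in RA and 18.3 in FGF8, and its _x_at probe set had 13.8, 8.43 and 20.5. HOXB13, a gene of the tail and prostate, reached no more than 4.34. The HOXC genes of these groups (HOXC9 to HOXC13) reached no more than 20.1, and the HOXD genes (HOXD9 to HOXD13, with digit and lumbar roles among them) no more than 15.2. At these signals the array could not measure a difference.

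By paralogue group 3 of 8 probe sets of groups 1 to 3, 4 of 7 of groups 4 and 5, 6 of 10 of groups 6 to 8 and 0 of 19 of groups 9 to 13 were higher in RA than in neuroepithelial cells, beside 10.1% of all probe sets with 1 symbol. By cluster these were 1 of 1 in A, 10 of 19 in B, 0 of 9 in C and 2 of 15 in D, the last near that background. Within cluster B the 7 genes HOXB2 to HOXB8, adjacent in RefSeq order, each had a called probe set (10 of 13), whereas HOXB1 at one end and HOXB9 and HOXB13 at the other had 0 of 6. The end at HOXB2 depended on the floor: with the floor at the 30th percentile HOXB1 was also called higher in RA than in neuroepithelial cells. In cluster D the called genes HOXD8 and HOXD4 are neighbours among the members, with HOXD9 to HOXD13 on one side and HOXD1 on the other under the floor.

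**Figure D2:**
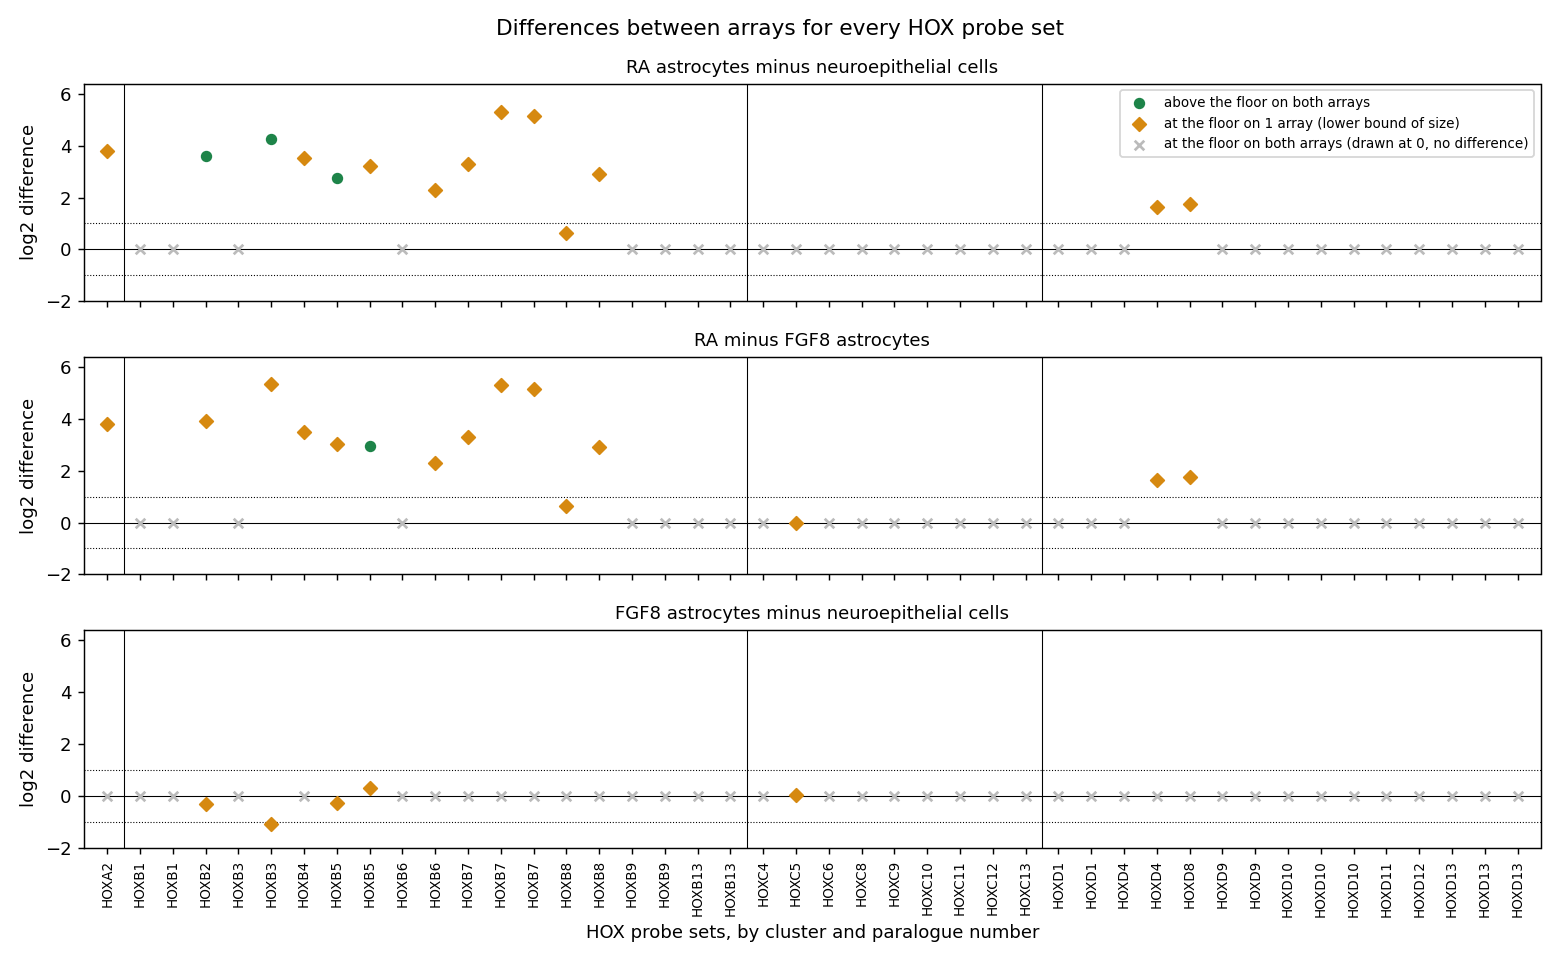
Difference in log2 signal for the 44 HOX probe sets in the 3 comparisons, ordered by cluster and paralogue number; circles were above the floor on both arrays, diamonds on 1 array (lower bounds of size), and crosses on neither. Dotted lines mark 2-fold. In both upper panels 13 probe sets lie above the upper dotted line, and in the lowest panel 1 (HOXB3) lies below the lower one.

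**Figure D3:**
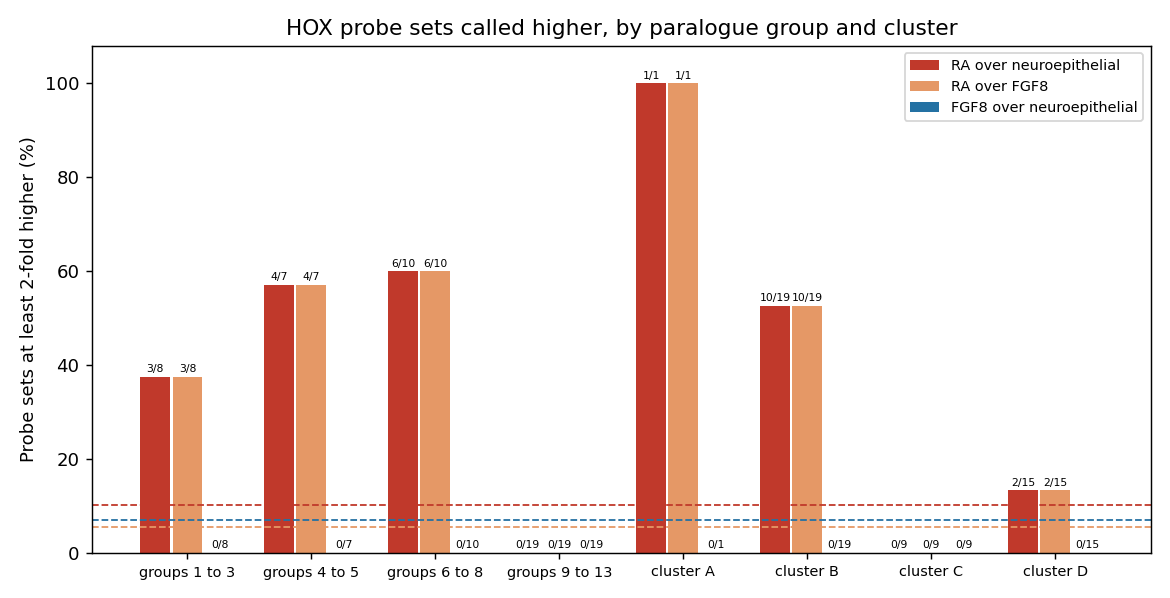
Share (%) of HOX probe sets at least 2-fold higher, by paralogue group (left) and by cluster (right), for RA over neuroepithelial, RA over FGF8 and FGF8 over neuroepithelial; counts stand over the bars, and dashed lines in the same colours give the share among the 41091 probe sets with 1 symbol (10.1%, 5.48% and 6.96%). Groups 9 to 13 and cluster C have 0 called probe sets in each comparison, and the bar of cluster A is 1 probe set.

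Other transcripts of the clusters, long noncoding RNAs and PRAC1, were read with 24 probe sets for 12 genes. Of these 24, 5 were higher in RA than in neuroepithelial cells and the same number than in FGF8, beside 10.1% and 5.48% of probe sets with 1 symbol. In FGF8 0 were higher than in neuroepithelial cells, beside 6.96%. HOXB-AS3, which overlaps HOXB5 and HOXB6, had 3 of its 5 probe sets higher in RA, the brightest in RA with 1.73 in neuroepithelial cells, 68.3 in RA and 1.02 in FGF8, at least 2.59-fold. HOXD-AS2 lies between HOXD8 and HOXD4 and had 0.962, 90.4 and 2.15, at least 3.43-fold. HOXA-AS2, which overlaps HOXA3 and HOXA4, had 8.17, 99.3 and 2.11 with 1 probe set, at least 3.76-fold, and fell short of 2-fold with its other probe sets. HOTAIR, HOXC-AS3, HOXA11-AS, HAGLROS, PRAC1 and HOXA-AS3, the last overlapping HOXA3, HOXA5, HOXA6 and HOXA7, were under the floor throughout. HOTTIP, next to HOXA13, had 40.0, 51.2 and 57.8 on its brightest probe set, within 2-fold on each pair. Counted by 1 probe set a gene, 2 of 12 (HOXB-AS3 and HOXD-AS2) were higher in RA than in either other array. Beside these stand 12.2% of all genes against neuroepithelial cells and 6.35% against FGF8. With spike-in signals set equal between arrays 0 were higher and HOTTIP was lower, 2.44-fold against neuroepithelial cells and 2.60-fold against FGF8.

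HOX proteins bind DNA with cofactors of the PBX and MEIS families. Of 9 cofactor genes with a probe set, counted by 1 probe set each, 3 were higher and 1 lower in RA than in neuroepithelial cells, beside 12.2% and 9.84% of 19775 genes. Against FGF8 3 were higher and 1 lower in RA, beside 6.35% and 5.15%, and 1 was higher and 3 were lower in FGF8 than in neuroepithelial cells, beside 8.42% and 6.74%. MEIS1 had a signal of 594 in neuroepithelial cells, 1210 in RA and 294 in FGF8, 4.11-fold higher in RA than in FGF8. Its other probe set also gave 4.10-fold between the astrocyte arrays but 1.04-fold lower in RA than in neuroepithelial cells, where the main one was 2.04-fold higher. PKNOX2, a relative of MEIS, had 250, 337 and 85.4, 3.94-fold higher in RA than in FGF8, and PBXIP1, which binds PBX proteins, had 148, 733 and 226, 3.25-fold.

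PBX3 had 789, 2552 and 1284, 3.23-fold higher in RA than in neuroepithelial cells and 1.99-fold higher than in FGF8. PBX2 had 352, 82.3 and 73.8, 4.27-fold and 4.77-fold lower in the astrocyte arrays than in neuroepithelial cells, and PBX4 was 2.54-fold lower in RA than in FGF8. MEIS2 had 1929, 2775 and 2324, within 2-fold on each pair. With spike-in signals set equal 0 cofactor genes were higher in RA and 3 were lower, in either comparison of the RA array. The median of all genes compared then moved from 0.07 to -1.15 in log2 against neuroepithelial cells and from 0.01 to -1.18 against FGF8. The share of all genes called is not given under this scaling, for cofactors or for the other lists.

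Among genes that act upstream of HOX, the CDX factors CDX1, CDX2 and CDX4, which switch on trunk HOX genes in the embryo, were under the floor on each array, at no more than 12.1. Of 12 upstream genes with a probe set 1 was higher and 0 lower in RA than in neuroepithelial cells, and 1 was higher and 1 lower than in FGF8. These counts lie near the shares over all genes, 12.2% and 9.84% against neuroepithelial cells and 6.35% and 5.15% against FGF8. With spike-ins set equal they were 0 higher and 4 lower, and 0 higher and 5 lower. The higher gene was GBX2, a factor of the anterior hindbrain, with 1.29, 86.3 and 3.66, at least 3.27-fold higher in RA than in either array and at least 1.59-fold, with no call, with spike-ins set equal. KAT6A, an acetyltransferase, had 950, 762 and 1529, 2.01-fold lower in RA than in FGF8, but another of its probe sets had 815, 979 and 1265, which is 1.29-fold. The retinoid receptor RARA had 75.2, 127 and 184, and was 2.44-fold higher in FGF8 than in neuroepithelial cells. RARB, itself a target of retinoic acid, had 5 probe sets that gave no common direction: 1 was at 16.5, 29.2 and 16.2, another at 37.3, 10.9 and 7.54, and the rest were under the floor on each array.

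**Figure D4:**
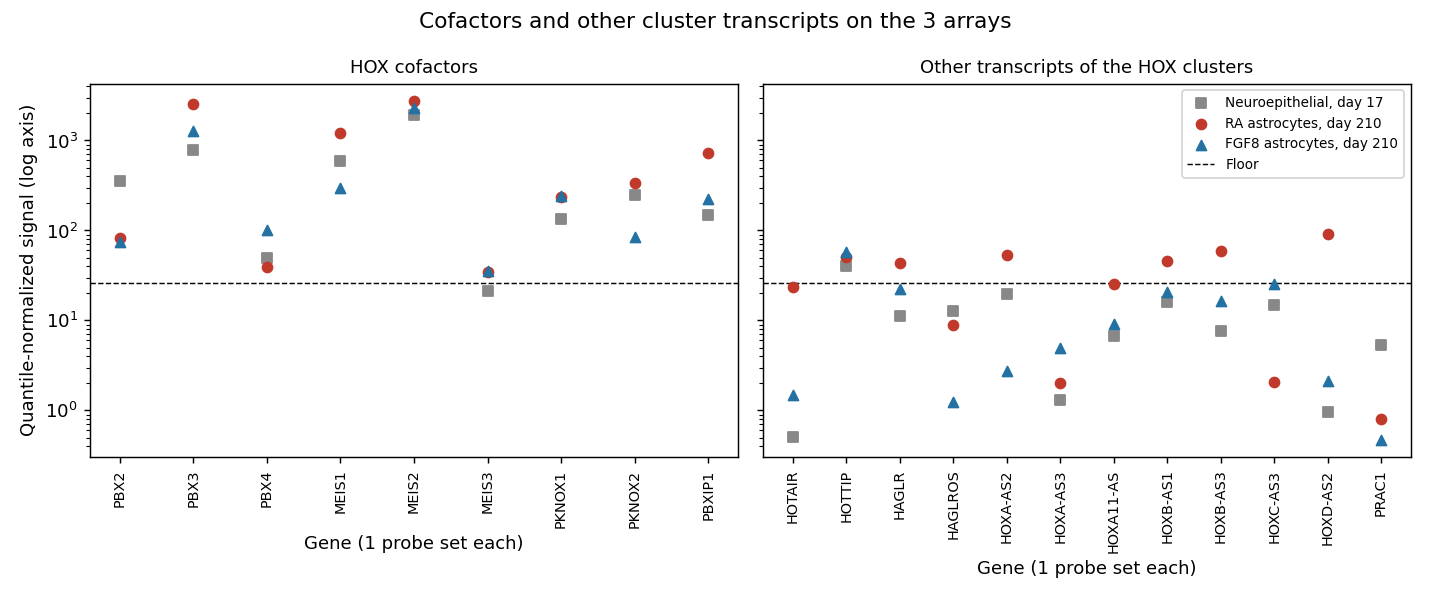
Quantile-normalized signal (log axis) on the 3 arrays for 9 HOX cofactor genes and 12 other transcripts of the HOX clusters, 1 probe set a gene; the dashed line is the floor. PBX3, MEIS1, PKNOX2 and PBXIP1 are at their highest in RA, and HOXD-AS2 (90.4) and HOXB-AS3 (59.7) are the transcripts called higher in RA by these probe sets.

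The cultures were checked against markers. Astrocyte markers were above the floor for 8 of 8 genes in both astrocyte arrays, and 5 of 8 were above the floor in neuroepithelial cells too. Against the neuroepithelial array 7 of 8 were higher in each, beside 12.2% of all genes in RA and 8.42% in FGF8. Neuroepithelial markers were above the floor for 6 of 6 genes in the neuroepithelial array and 5 of 6 in each astrocyte array. Against the neuroepithelial array 4 were lower in RA, beside 9.84%, and 3 were lower in FGF8, beside 6.74%. NES was 2.06-fold higher in RA, 1 call beside 12.2%. Of 5 other hindbrain genes 4 (IRX1, IRX3, IRX5 and GBX2) were higher in RA than in both other arrays, beside 12.2% and 6.35% of all genes. In FGF8 IRX5 was 3.01-fold higher and IRX3 at least 2.90-fold lower than in neuroepithelial cells, 1 call each beside 8.42% and 6.74%. Of 12 forebrain and midbrain genes 8 were lower in RA than in neuroepithelial cells, beside 9.84%, and 5 lower than in FGF8, beside 5.15%, whereas EN1 was higher than in both. The same list had 5 lower and 3 higher in FGF8 than in neuroepithelial cells, beside 6.74% and 8.42%. With spike-ins set equal 3 hindbrain genes were higher in RA in either comparison, 1 was lower than in neuroepithelial cells, and the calls for GBX2 and EN1 were lost. Neural crest, which also carries HOX genes, had 2 of 4 markers higher in RA than in FGF8 (PAX3 and TFAP2A), beside 6.35%. Against neuroepithelial cells PAX3 was higher and TFAP2A lower in RA, 1 call each beside 12.2% and 9.84%. The summed signal of the 4 was 270 in neuroepithelial cells, 723 in RA and 22.3 in FGF8; SOX10 (1.71 in RA) and FOXD3 were under the floor in RA. Of 7 mesenchyme and mesoderm markers 4 were above the floor in neuroepithelial cells, 1 in RA (PRRX1, 48.4) and 2 in FGF8. COL1A1 and COL3A1, at 5024 and 1497 in neuroepithelial cells, were lower in both astrocyte arrays, where they were under the floor. These 2 calls in each array stand beside 9.84% in RA and 6.74% in FGF8. PRRX1 was 4.96-fold higher in FGF8 than in neuroepithelial cells, 1 call beside 8.42%. TBX6, MEOX1 and MEOX2 were under the floor on each array. Microglial markers were above the floor for 0, 1 and 1 of 5 genes (CSF1R, 31.2, in RA), so their sums of 50.9, 85.2 and 66.9 are mostly signals taken as not measured. Neuronal markers summed to 13539, 11203 and 13939. Of 6 genes 2 were higher in RA than in FGF8 (SYT1 5.09-fold and STMN2 at least 5.79-fold) and DCX was 11.6-fold lower, beside 6.35% and 5.15%. Against neuroepithelial cells SYT1 was 3.26-fold higher in RA and 2 were lower, beside 12.2% and 9.84%. In FGF8 2 were higher than in neuroepithelial cells (DCX 3.27-fold and ELAVL3 2.54-fold) and 1 was lower (STMN2), beside 8.42% and 6.74%. The part of other cells in the HOX signals was not tested, and more cells with a gene and more RNA per cell cannot be told apart here.

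The RA array also differed in its controls. Its spike-in transcripts, added to each hybridisation, were on average 2.62-fold brighter than on the neuroepithelial array and 2.40-fold brighter than on the FGF8 array (18 probe sets). The ACTB 3' to 5' signal ratio, a sign of shortened RNA, was 1.33 in the neuroepithelial array, 6.67 in RA and 6.63 in FGF8, alike in the 2 astrocyte arrays. The same ratio for GAPDH differed less, at 0.984, 1.79 and 1.65 in that order. With spike-ins set equal 11 of the 44 HOX probe sets were still at least 2-fold higher in RA than in neuroepithelial cells. They covered 8 of the 10 genes, and the calls for HOXD4 and HOXD8 were lost, at log2 0.59 and 0.70. The share of all probe sets called is not given under this scaling, and the 10.1% given before does not apply to it. The differences that were measured on both arrays shrank: against neuroepithelial cells HOXB3 stood at log2 2.70 in place of 4.26, HOXB2 at 1.96 in place of 3.62 and the _x_at probe set of HOXB5 at 1.07 in place of 2.77.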

How the data were processed

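Total RNA from 3 H9 samples was labelled with biotin at a core facility, per the labels' protocols, and read on 1 array each. The deposited table holds a linear intensity per probe set. Its values show each array scaled to a mean near 150.0, leaving out the lowest and highest 2%; the signal algorithm and any background step are not given in the sources used here. Quantile normalization was applied to 54613 non-control probe sets, since 75th percentiles differed by 0.14 in log2, and then a floor at the median (signal 26.4, log2 4.72). Quantile normalization forces equal distributions, and the floor shrinks differences of weak genes. Gene symbols came from the platform annotation: 41091 probe sets had 1, 1801 several and 11721 none. The 28 member genes matched RefSeq (GRCh38.p14) by gene ID, used for order. Promoters were RefSeq's.

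Members are all named, with values where any array exceeded the floor. For other genes 1 probe set was used, that with the highest mean log2 signal, leaving out _x_at where another existed. Of other lists up to 4 genes per direction with the largest RA differences are named, with MEIS1, MEIS2, CDX1, CDX2, RARA and RARB; the HOXA2 promoter and other names were added after values were seen. Members and lists were chosen with earlier results of these data known. No test was run, since each group had 1 array, and precision is limited by their number. Calls were checked on simulated arrays with changes set only in probe sets well above the floor. That check does not cover members near the floor or differences in RNA quality between arrays. Python 3.11.15, numpy 2.4.6, pandas 2.3.3, scipy 1.17.1 and matplotlib 3.10.9 were used. Alternatives covered scaling, floor, probe set choice and size.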

Additional observations from a re-analysis of the deposited data

Results flagged for a closer look

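The brighter probe set of HOXB3 went opposite ways in the astrocyte arrays relative to the neuroepithelial array they share, by 4.26 in log2 in RA and by at least -1.09 in FGF8; this difference was not tested. It was -0.87 in FGF8, under 2-fold, when no floor was set and 16 was added to each signal.

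Outside the members, 1 of 3 probe sets annotated to several genes of the HOXD cluster had a signal of 42.4 in the RA array, above the floor, against 7.59 in the neuroepithelial and 3.61 in the FGF8 array, at least 1.61-fold.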

How the results depend on the processing

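The counts of members higher in RA stood at 13 with array medians equal (which moved the median log2 difference of all genes against neuroepithelial cells from 0.07 to 0.34) and with the deposited values, at 9 of 28 genes with 1 probe set a gene or the mean over probe sets, and at 6 in both RA comparisons without the _x_at and _s_at probe sets, where 7 in RA and 1 in FGF8 were above the floor. With the floor at the 30th percentile (9.51) 18, 25 and 20 members were above it in the neuroepithelial, RA and FGF8 arrays. Then 15 were higher in RA than in neuroepithelial cells, with HOXB1 gained, and 16 higher than in FGF8. In RA 2 were lower than in neuroepithelial cells and 3 lower than in FGF8. In FGF8 against neuroepithelial cells 2 were higher and 4 lower. With the floor at the 70th percentile (95.4) 0 were above it in the neuroepithelial and FGF8 arrays, and 0 were lower in FGF8. The RA calls of HOXB6, HOXD4 and HOXD8 were lost. Without a floor and with 16 added 1 was lower in RA than in neuroepithelial cells, and in FGF8 1 was higher and 2 lower. The call of HOXB3 in FGF8 was lost (0 lower) with the mean over probe sets and at 4-fold. With deposited values 5 members were above the floor in the neuroepithelial and 1 in the FGF8 array. With spike-ins set equal, chosen after seeing the data, 12 were above it in the neuroepithelial array and 2 were lower in FGF8. Of 270 values of single probe sets recomputed, 246 kept their call, 24 did not and 0 reversed; causes were not tested. With 1 probe set a gene the 9 of 28 genes stand beside 12.2% of 19775 genes against neuroepithelial cells and 6.35% against FGF8. No share is given for the other alternative settings, so their counts have no background beside them. Signals under the floor limit what can be said of 29 members.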
